A study of Mus musculus with 5 samples.

Results

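The 29 genes described here encode enzymes that make cholesterol and fatty acids, together with the regulators that set their transcription and 1 sterol carrier. They were chosen by symbol from the functions of their products, with earlier results of these data known. All 29 were found among the 17739 genes of the deposited table. All 29 had a mean log2 value of 5 or more, and so did 13691 genes in all, which are called the expressed genes below and form the background of the counts. Expression had been measured by strand-specific mRNA sequencing in 5 cerebellar medulloblastomas of mice, numbered 1, 5, 8, 14 and 15 in the labels. Every animal carried Math1-Cre, whose promoter is active in granule neuron progenitors of the cerebellum, and the Gli2A allele, bred from an R26;Gli2A line, and was given a doxycycline diet starting at conception (embryonic day 0). The labels give GLI2, a transcription factor that carries the Sonic hedgehog (SHH) signal to the nucleus, as active in all 5. The labels give neither the age nor the sex of the animals, and the group has no control tissue. Tumour tissue was papain-digested to single cells before RNA extraction, and the labels name no sort, so cells other than tumour cells may have been included. The labels do not say whether the 5 numbers stand for separate animals, so standard deviations (SD) and p-values over them reflect only how these samples vary, which may include technical variation.

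Cells build cholesterol from acetyl-CoA. The mevalonate enzymes make isoprenoid units, these are joined into squalene and closed into the ring of lanosterol, and a last series of steps turns lanosterol into cholesterol. Fatty acids branch off from the same acetyl-CoA, which ATP citrate lyase makes from citrate, through acetyl-CoA carboxylase and fatty acid synthase. Stearoyl-CoA desaturases then place a double bond. Transcription of both branches is driven by the sterol regulatory element binding proteins (SREBPs), which are escorted by SCAP and held back in the endoplasmic reticulum by the INSIG proteins when sterol is plentiful. Brain makes its own cholesterol, with a high demand from oligodendrocytes that form myelin. Sterols also take part in hedgehog signalling, where cholesterol and some of its derivatives act on the membrane protein Smoothened.

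Promoter sequence is shown for 4 members: the 3 with the widest range among those highest in tumour 1 that had an entry in the RefSeq promoter table, and the 1 member whose promoter held a classical sterol regulatory element. The bases lie upstream of the RefSeq start on GRCm38.p6, leave out bases in annotated exons, and are written 5′ to 3′ on the gene's strand. Capitals mark TCACNCCAC (the core of a sterol regulatory element), CCAAT (the box bound by NF-Y) and GGGCGG (the box bound by SP1) on either strand.
Hmgcs1, chr13:119690101-119690350, plus strand: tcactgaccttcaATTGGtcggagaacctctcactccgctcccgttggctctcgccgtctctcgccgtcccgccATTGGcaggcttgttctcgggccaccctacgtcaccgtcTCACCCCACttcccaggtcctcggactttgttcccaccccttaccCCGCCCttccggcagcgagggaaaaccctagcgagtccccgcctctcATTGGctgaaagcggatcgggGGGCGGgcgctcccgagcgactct
Acat2, chr17:12960748-12960975, minus strand: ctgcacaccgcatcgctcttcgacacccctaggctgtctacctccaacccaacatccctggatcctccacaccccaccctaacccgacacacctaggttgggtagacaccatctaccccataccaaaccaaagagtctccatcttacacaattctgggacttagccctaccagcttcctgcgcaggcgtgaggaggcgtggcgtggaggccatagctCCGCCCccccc
Cyp51, chr5:4104747-4104947, minus strand: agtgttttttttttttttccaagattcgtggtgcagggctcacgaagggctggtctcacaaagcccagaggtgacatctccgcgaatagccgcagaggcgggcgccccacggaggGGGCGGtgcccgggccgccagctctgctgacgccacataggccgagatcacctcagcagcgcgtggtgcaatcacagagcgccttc
Nsdhl, chrX:72918412-72918520, plus strand: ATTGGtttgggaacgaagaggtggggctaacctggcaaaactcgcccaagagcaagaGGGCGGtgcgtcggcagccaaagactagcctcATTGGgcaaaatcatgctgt
The Hmgcs1 promoter held TCACNCCAC with its first base 137 bases before the start, between CCAAT boxes and with 2 GGGCGG boxes closer to the start. The Nsdhl stretch of 109 bases held 2 CCAAT boxes and 1 GGGCGG box, and the Acat2 and Cyp51 stretches 1 GGGCGG box each. RefSeq promoter windows of 300 bases (250 before the start and 50 after it) were found for 23 of the 29 genes, with 31 windows in all. CCAAT was present in 21 of the 31 windows (67.7%), against 37.4% of all 32851 windows in the table. GGGCGG was present in 24 of the 31 (77.4%), against 35.7% of all windows. TCACNCCAC was present in 1 of the 31 (3.23%), against 1.24%. Each motif was counted on its own and matches of different motifs can share bases, so the counts are not separate readings. The table's windows include those of genes that are not expressed here, and a match is only a match of letters.

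The lipid synthesis genes were expressed at moderate to high levels, with the fatty acid synthesis genes Scd2 and Fasn at the top. The deposited values are on a log2 scale, read here as regularised-log values, and are not corrected for transcript length. Levels of different genes are therefore compared mainly after subtracting the log2 of the merged exon length in kilobases (GENCODE M21, GRCm38). The result is called the level per kilobase below. Uncorrected values, means and sums of different genes are also given, and gene length can affect how those compare. The median level per kilobase of the 29 members was 7.89, against 7.17 for the expressed genes and 6.48 for all 17302 genes that had a length. The median was 9.97 for the 5 fatty acid synthesis genes, 9.18 for the 5 regulators, 8.89 for the 3 enzymes from squalene to lanosterol, 8.18 for the 7 mevalonate enzymes and 7.54 for the 8 enzymes after lanosterol. The fatty acid synthesis genes were spread widely, with Scd2 at 11.65 and Fasn at 10.43, but Acaca at 7.46 and Scd1 at 7.22, below the median of the members. Merged exons include rarely used ones, so the level per kilobase is low for genes with many annotated forms, such as Lss (10787 bases, 6.78) and Acaca (17074 bases, 7.46).

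**Figure D1:**
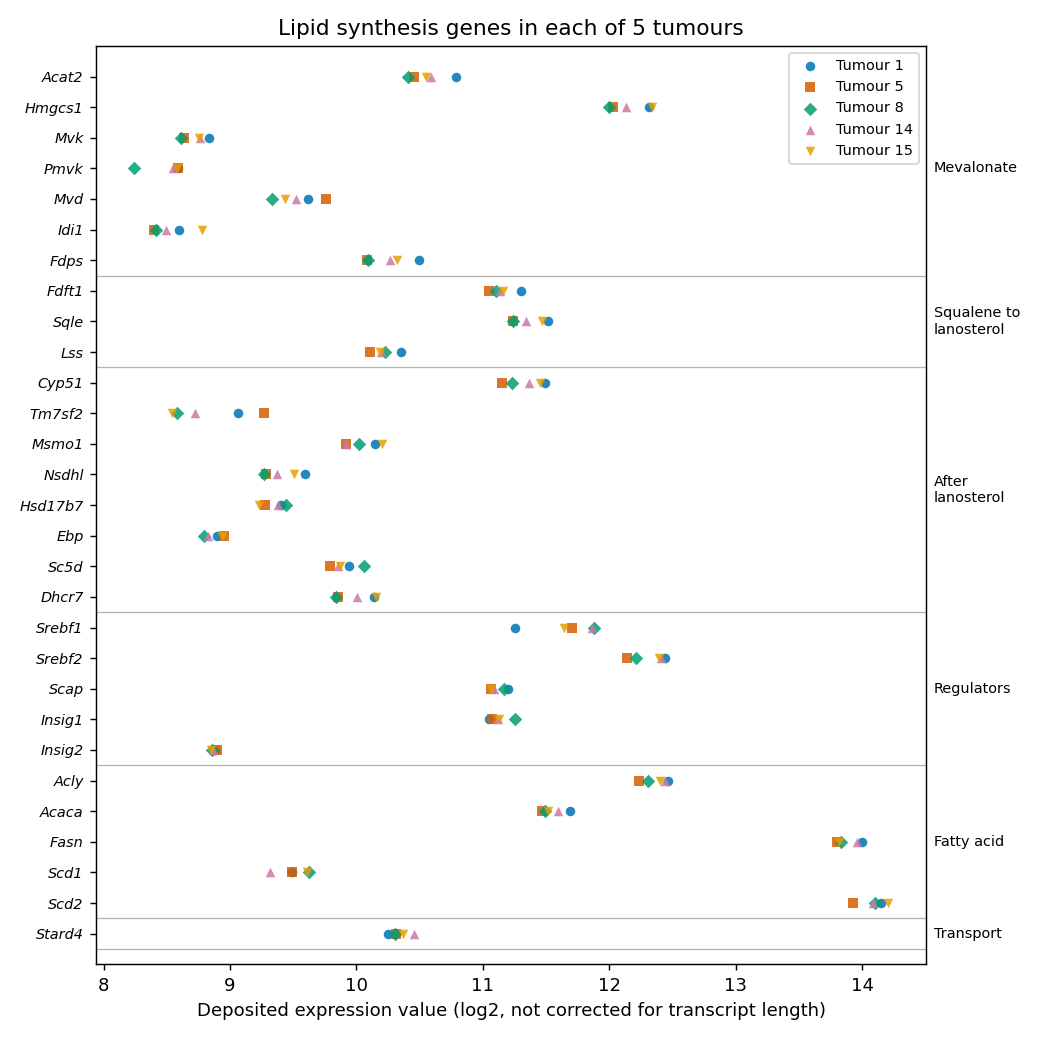
Deposited log2 value (horizontal axis, not corrected for transcript length) of each of 29 lipid synthesis genes (rows, grouped by role) in tumours 1, 5, 8, 14 and 15 (coloured symbols). The 5 symbols of a gene lie close together, from 0.06 apart for Insig2 to 0.73 for Tm7sf2, while gene means run from 8.51 to 14.10.

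Among the fatty acid synthesis genes, Scd2, a stearoyl-CoA desaturase that is the main form in brain (chromosome 19, 44293674 to 44306864, protein coding), stood highest. Its log2 values were 14.15 in tumour 1, 13.93 in tumour 5, 14.10 in tumour 8, 14.09 in tumour 14 and 14.21 in tumour 15. Only tumour 5 lay below 14, and the level per kilobase of 11.65 placed Scd2 above 99.2% of the genes with a length. Fasn, the fatty acid synthase (chromosome 11, 120805846 to 120824547), had log2 values of 14.00, 13.80, 13.83, 13.96 and 13.82 in tumours 1, 5, 8, 14 and 15 (mean 13.88 ± 0.090, SD, n = 5). Tumours 1 and 14 were the upper pair. Acly, which makes cytosolic acetyl-CoA from citrate, averaged 12.37 ± 0.095, and Acaca, the acetyl-CoA carboxylase of the cytosol, 11.55 ± 0.090 (SD, n = 5). Scd1, the desaturase that prevails in liver and fat, was much lower at 9.49, 9.49, 9.63, 9.31 and 9.61 in the same order of tumours, with tumour 14 lowest. Fat cell markers were near the bottom of the scale: of 5 listed, 3 were in the table and none was among the expressed genes, and Plin1, the one with the highest uncorrected mean, averaged 3.51.

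Genes of the same function were then compared within each tumour. Scd2 exceeded Scd1 by 4.51, 4.28, 4.32, 4.61 and 4.44 per kilobase on the log2 scale in tumours 1, 5, 8, 14 and 15, a mean of 4.43 ± 0.14 (SD, n = 5) or 21.6-fold. Insig1, the INSIG gene whose transcription SREBPs drive, exceeded its relative Insig2 by 2.42 ± 0.093, or 5.35-fold, in 5 of 5 tumours. Acaca minus Fasn was -2.97 ± 0.026 per kilobase, below 0 in 5 of 5 tumours. It was -2.33 without subtracting exon length and -2.25 with the length of the longest transcript. The difference between these successive enzymes of fatty acid synthesis varied over the tumours by less than that of any other of the 5 pairs. Sqle minus Fdft1, successive enzymes around squalene, was -0.18 ± 0.062, also below 0 in 5 of 5, but it was 0.21 without subtracting exon length, so which of the pair is higher depends on the length used. Each of these 4 pairs gave p = 0.0625 by an exact permutation test that flips the signs of the tumours, two-sided (adjusted 0.0781 over the 5 pairs). With 5 tumours 0.0625 is the smallest p the test can give, so no pair could pass 0.05. Scd1 and Scd2 are close relatives, and the sources used here do not give how reads shared by both were counted, so their split is uncertain.

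The SREBP genes were the pair whose difference varied most. Srebf2, the SREBP that mainly drives cholesterol genes, had log2 values of 12.44, 12.14, 12.21, 12.41 and 12.40 in tumours 1, 5, 8, 14 and 15. Srebf1 (chromosome 11, 60199089 to 60222581), which mainly drives fatty acid genes, had 11.25, 11.71, 11.88, 11.87 and 11.64. Tumour 1 was therefore highest for Srebf2 and lowest for Srebf1. Per kilobase, Srebf2 exceeded Srebf1 by 0.84 in tumour 1, 0.08 in tumour 5, 0.19 in tumour 14 and 0.40 in tumour 15, and the difference was -0.022 in tumour 8. The mean difference was 0.30 ± 0.34 (SD, n = 5), above 0 in 4 of 5 tumours (exact permutation test, two-sided p = 0.125, adjusted 0.125), and 0.16 without tumour 1. With the length of the longest transcript the mean difference was 0.41, and without subtracting length 0.65. In both cases it was above 0 in 5 of 5 tumours (exact permutation test, two-sided p = 0.0625, the smallest it can give). The size of the difference and its sign in tumour 8 thus depend on the length used.

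**Figure D2:**
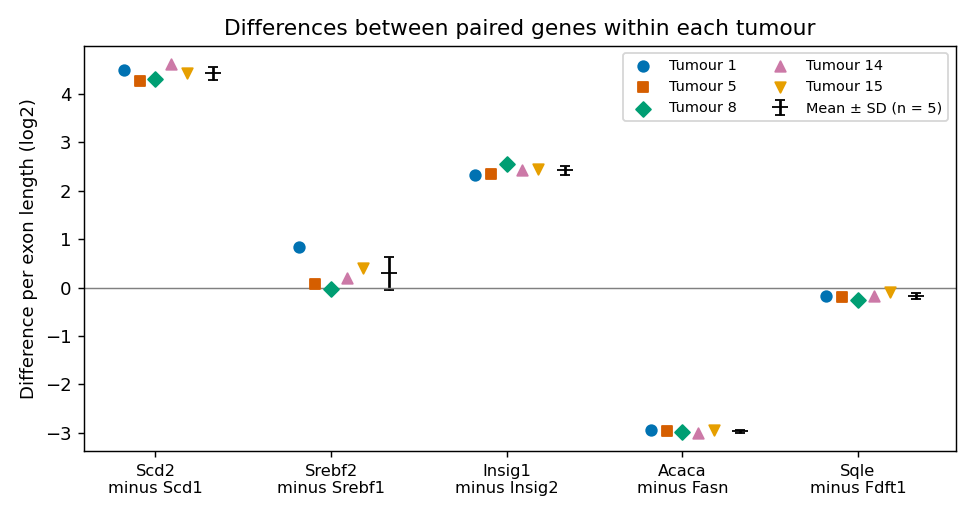
Difference between paired genes within each tumour, per exon length, on the log2 scale (vertical axis), with coloured symbols for tumours 1, 5, 8, 14 and 15 and the mean with its SD over 5 tumours in black. Scd2 lies above Scd1 and Insig1 above Insig2 in every tumour, while Srebf2 minus Srebf1 runs from -0.022 in tumour 8 to 0.84 in tumour 1.

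Differences between the tumours were small for these genes, as they were for the typical expressed gene. None of the 29 members ranged over 2-fold between its highest and lowest tumour, against 3.79% of the 13691 expressed genes and 2.35% of the 8882 genes whose mean lay within that of the members. A range over 1.5-fold was seen for 2 of 29 members, Tm7sf2 and Srebf1, against 14.7% of the 13691 genes and 8.98% of the 8882. Without tumour 1 the range of Srebf1 was 0.24 on the log2 scale, under 1.5-fold. The median range was 1.21-fold both for the members and for the expressed genes, and the median SD 0.13 against 0.11. The narrowest was Insig2, at 8.85 to 8.90 in the 5 tumours.

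**Figure D3:**
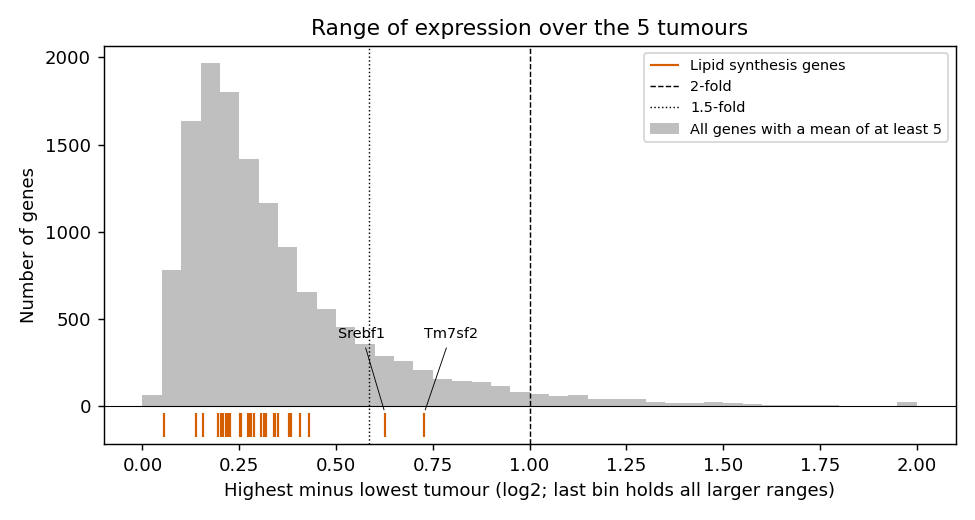
Histogram of the log2 range over the 5 tumours (horizontal axis) for the 13691 expressed genes (grey bars, number of genes), with the 29 lipid synthesis genes as orange ticks below. All ticks lie left of the 2-fold line and only Srebf1 and Tm7sf2 lie right of the 1.5-fold line.

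Within this small spread, the sterol enzymes lay on the same side in tumour 1. A gene's deviation is its log2 value in 1 tumour less the median over the remaining 4. All 18 sterol enzymes, from Acat2 to Dhcr7, had a positive deviation in tumour 1, as did 25 of the 29 members, against 52% of the expressed genes. The median deviation of the 18 enzymes there was 0.18. The same 18 enzymes had a median deviation of -0.12 in tumour 5, -0.17 in tumour 8, -0.011 in tumour 14 and 0.068 in tumour 15. Over the expressed genes the medians were within 0.01 of 0 in each tumour. Tumours are not groups, so no test was made of these deviations.

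By gene, 13, 5, 5, 1 and 5 of the 29 members were highest in tumours 1, 5, 8, 14 and 15, against 20.2%, 24.1%, 18.5%, 15.8% and 21.4% of the expressed genes. The lowest value fell in the same tumours for 3, 13, 8, 2 and 3 members, against 16.9%, 24.6%, 22.6%, 13% and 22.9%. Leaving out 1 tumour moved some of these counts. Without tumour 1, 7 members were highest in tumour 14 and 10 in tumour 15, against 19.3% and 28.7% of the expressed genes. Without tumour 8, 2 were highest in tumour 14 and 4 lowest there, against 24.0% and 20.9%. Without tumour 5, 16 were lowest in tumour 8, 4 in tumour 14 and 6 in tumour 15, against 29.4%, 19.6% and 28.96%. With the columns centred on their medians, 3, 4 and 3 members were highest in tumours 5, 14 and 15, against 20.3%, 24.1% and 14.9%. In the same setting 5, 1 and 5 were lowest in tumours 8, 14 and 15, against 19.0%, 7.60% and 32.9%. Deviations were negative for 24 of 29 members in tumour 5, against 51.9% of the expressed genes, and for 22 of 29 in tumour 8, against 49.1%. They were positive for 19 of 29 in tumour 15, against 47.6%. For 15 of 29 members tumours 1 and 15 both lay above tumours 5 and 8, a split chosen after seeing the values, against 22% of the expressed genes. These 15 were Acat2, Hmgcs1, Mvk, Idi1, Fdps, Fdft1, Sqle, Cyp51, Msmo1, Nsdhl, Dhcr7, Srebf2, Acly, Acaca and Scd2. Genes of a pathway share regulators, so the 29 genes are not independent readings of the tumours.

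**Figure D4:**
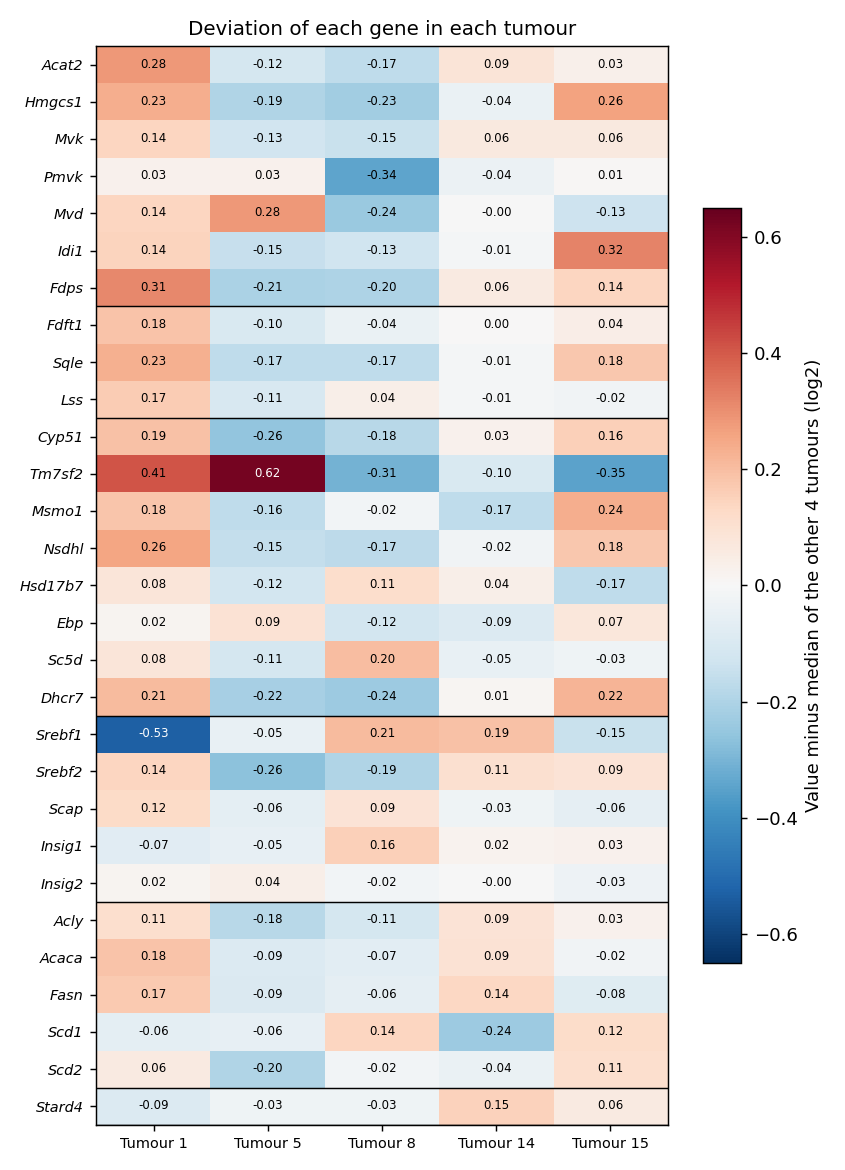
Deviation of each of 29 genes (rows, in role order with lines between roles) in each tumour (columns), as the log2 value less the median over the remaining 4, printed in each cell and coloured red above 0 and blue below 0. The sterol enzymes are red throughout the tumour 1 column and mostly blue in tumours 5 and 8, while Srebf1 is the darkest blue cell, at -0.53 in tumour 1.

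Of the 7 mevalonate enzymes, 5 were lowest in tumour 8, against 22.6% of the expressed genes, and 0 in tumour 1, against 16.9%. Hmgcs1, which makes HMG-CoA and whose promoter is printed above (chromosome 13, 119690379 to 119708260), had log2 values of 12.32, 12.03, 11.997, 12.13 and 12.34 in tumours 1, 5, 8, 14 and 15. Fdps, the farnesyl diphosphate synthase, had 10.49, 10.08, 10.09, 10.26 and 10.32. In both genes tumours 5 and 8 formed the low end, and the step up to tumour 14 was wider than the distance between them. Of the Fdps exon bases, 26.7% are shared with Gm43738 on the same strand, so its level is uncertain. Acat2, the cytosolic thiolase at the head of the pathway, had 10.78, 10.45, 10.40, 10.59 and 10.55, and Idi1, the isomerase of isopentenyl diphosphate, 8.60, 8.40, 8.42, 8.50 and 8.78. Tumour 1 led for Acat2 and tumour 15 for Idi1. Mvk, the mevalonate kinase, ranged from 8.61 to 8.84. The remaining kinase, Pmvk, did not follow the pattern: it had 8.59, 8.59, 8.24, 8.55 and 8.58, with tumour 8 apart from the other 4. Mvd, the decarboxylase that follows it, was highest in tumour 5, at 9.76 against 9.33 to 9.62 in the others.

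The enzymes that make and close squalene were all 3 highest in tumour 1, against 20.2% of the expressed genes, and all 3 lowest in tumour 5, against 24.6%. Sqle, squalene epoxidase, a rate-limiting step of the pathway, had log2 values of 11.52, 11.24, 11.24, 11.34 and 11.47 in tumours 1, 5, 8, 14 and 15. Tumours 5 and 8 were alike to 2 decimals. Fdft1, the squalene synthase, ranged from 11.05 to 11.30 and Lss, the lanosterol synthase, from 10.10 to 10.36. Without tumour 1 the range of Fdft1 narrowed from 0.25 to 0.11 and that of Lss from 0.25 to 0.12. Of the Fdft1 exon bases, 18.3% are shared with Ctsb on the opposite strand. Ctsb, a lysosomal protease gene, was highest in tumour 5 (13.58, against 13.04 to 13.20 in the others), where Fdft1 was lowest.

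After lanosterol the enzymes were less uniform. Cyp51, the lanosterol demethylase (chromosome 5, 4081145 to 4104746), had log2 values of 11.49, 11.15, 11.23, 11.37 and 11.46 in tumours 1, 5, 8, 14 and 15. Nsdhl, which removes the methyl groups at carbon 4 together with Msmo1 and Hsd17b7, had 9.59, 9.29, 9.27, 9.37 and 9.51, and Dhcr7, the last reductase, 10.14, 9.85, 9.83, 10.01 and 10.15. All of these placed tumours 1 and 15 at the top and tumours 5 and 8 at the bottom. Msmo1 ranged from 9.92 to 10.20, also with tumours 1 and 15 at the top. Hsd17b7 (9.23 to 9.44) and Sc5d, the lathosterol desaturase (9.79 to 10.06), were highest in tumour 8 instead, and Ebp, the sterol isomerase, hardly varied (8.80 to 8.95).

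Tm7sf2, a sterol C14 reductase, had the widest range of the 29 members. Its log2 values were 9.06, 9.27, 8.58, 8.72 and 8.54 in tumours 1, 5, 8, 14 and 15, a 1.66-fold range. Tumours 5 and 1 stood above the other 3. Of its exon bases 12.1% are shared with Vps51 on the same strand, so some reads could have been assigned to either or to neither. Vps51 itself ranged by 0.097 and was lowest in tumour 5.

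Among the regulators only Srebf2 shared the split of most sterol enzymes. Scap, the escort of the SREBPs, ranged from 11.06 to 11.20 and was highest in tumour 1. Insig1 (chromosome 5, 28071363 to 28078662), itself an SREBP target, had log2 values of 11.05, 11.07, 11.25, 11.12 and 11.13 in tumours 1, 5, 8, 14 and 15. It was lowest in tumour 1, where the sterol enzymes were high, and highest in tumour 8. Srebf1 was also lowest in tumour 1, with a deviation of -0.53, and without tumour 1 its range narrowed from 0.63 to 0.24. Stard4, a sterol carrier that is also an SREBP target, had 10.25 in tumour 1 and up to 10.46 in tumour 14.

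The other genes of lipid metabolism were examined in lists chosen by function. Of 10 further genes of SREBP processing, 0 ranged over 1.5-fold, against 14.7% of the expressed genes. Mbtps1, which encodes a protease that cuts SREBPs, had the highest mean log2 value of the list, not corrected for length (11.99 ± 0.081, SD, n = 5). Of 11 genes of the isoprenoid branches that leave the pathway after Fdps, only Icmt, the carboxyl methyltransferase of prenylated proteins, ranged over 1.5-fold, from 10.79 in tumour 5 to 11.43 in tumour 15. Of 24 further fatty acid genes, 4 did so, among them the elongase gene Elovl7 (7.81 in tumour 1 to 8.68 in tumour 5). That share lies near the 14.7% of the expressed genes. Of the 24, 7 were highest in tumour 1 and 8 in tumour 5, against 20.2% and 24.1% of the expressed genes. Tecr, the reductase of the elongation cycle, had the highest uncorrected mean, 12.90.

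Genes of sterol transport, storage and breakdown did not have the order of the sterol enzymes. Of 20 such genes, 11 were highest in tumour 5, against 24.1% of the expressed genes (19 of the 20 were among them), and the median deviation there was 0.18. Apoe, the main lipoprotein component of brain, had log2 values of 14.45, 15.14, 14.66, 14.48 and 14.14 in tumours 1, 5, 8, 14 and 15. Cyp46a1, the neuronal enzyme that hydroxylates cholesterol for export, had 6.63, 7.74, 6.90, 6.98 and 6.76. Both were highest in tumour 5, in which 13 of the 29 synthesis genes were lowest. All 12 genes of fatty acid oxidation had a positive deviation in tumour 5, against 48.1% of the expressed genes, with a median of 0.12. Hadha, a subunit of the mitochondrial trifunctional protein, had the highest uncorrected mean (11.39 ± 0.042, SD, n = 5), and Ehhadh, a peroxisomal enzyme, had the largest SD (5.62 ± 0.19, n = 5).

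Markers of other cells differed between the tumours more widely than the lipid synthesis genes, and not all in the same order of tumours. In bulk RNA, fewer cells of a type and less RNA per cell cannot be told apart. Of 12 oligodendrocyte markers, 12 had their highest value in tumour 5, against 24.1% of the expressed genes. Their lowest value fell in tumour 1 for 8 and in tumour 15 for 4, against 16.9% and 22.9%. On the log2 scale their summed level was 14.58 in tumour 1, 15.94 in tumour 5, 15.58 in tumour 8, 15.10 in tumour 14 and 14.81 in tumour 15, and 11 of the 12 were among the expressed genes. The sterol enzymes, summed in the same way, stood at 14.65, 14.41, 14.40, 14.49 and 14.58, in nearly the opposite order. Oligodendrocyte precursor markers (7 of 7 expressed) had a summed level of 14.53 in tumour 1, and elsewhere 13.99 to 14.22. Microglia and macrophage markers (8 of 8) had 13.56 in tumour 5, and elsewhere 12.73 to 13.00. Astrocyte and Bergmann glia markers (8 of 8) ran from 15.00 in tumour 1 to 15.44 in tumour 5. Of the mature granule neuron markers (6 of 6), 5 were highest in tumour 5, against 24.1% of the expressed genes. The 6 markers had the widest median range of the marker lists, 3.21-fold. Their median deviations were -0.54, 1.36, 0.18, 0.22 and -0.65 in tumours 1, 5, 8, 14 and 15. Their summed level ran only from 11.87 in tumour 8 to 12.40 in tumour 5, since it is mostly that of Cbln1 (mean 11.85), which was highest in tumour 15. Endothelial markers (6 of 6) had summed levels from 11.99 in tumour 14 to 12.69 in tumour 5. Fibroblast and pericyte markers (6 of 6) ran from 13.90 in tumour 5 to 14.84 in tumour 15. Choroid plexus markers (5 of 5) ran from 13.11 in tumour 1 to 14.76 in tumour 5. In none of these lists other than that for fat cells was a mean below 4.96.

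Tumour cell and handling markers also differed between the tumours. Genes of the granule neuron lineage, from which these tumours are known to arise, had a median of means of 13.69 over 8 genes, not corrected for length. Their median deviations were -0.037, 0.072, -0.12, 0.016 and -0.090 in tumours 1, 5, 8, 14 and 15. Atoh1 lay far below that median, at a mean of 8.62, and ran from 8.00 in tumour 1 to 9.49 in tumour 15. It was 1 of 2 genes of the 8 that ranged over 1.5-fold, against 14.7% of the expressed genes. SHH targets had median deviations of 0.13, -0.49, 0.16, 0.12 and -0.12 in tumours 1, 5, 8, 14 and 15. Cell cycle genes had -0.084, -0.20, 0.17, 0.21 and -0.025 in the same order. SHH targets were thus on the side of the sterol enzymes in tumours 1 and 5 and on the other side in tumour 8. Of these tumours, cell cycle genes shared the side of the sterol enzymes in tumour 5 only. In tumours 14 and 15 the sterol enzymes had small deviations (-0.011 and 0.068), so no side is read there. Genes induced by dissociation stress were lowest in tumour 1 for 8 of 8 genes, against 16.9% of the expressed genes, with a median deviation of -0.66. The part of any of these in the order of the lipid synthesis genes was not tested. With 5 tumours no correlation is given.

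**Figure D5:**
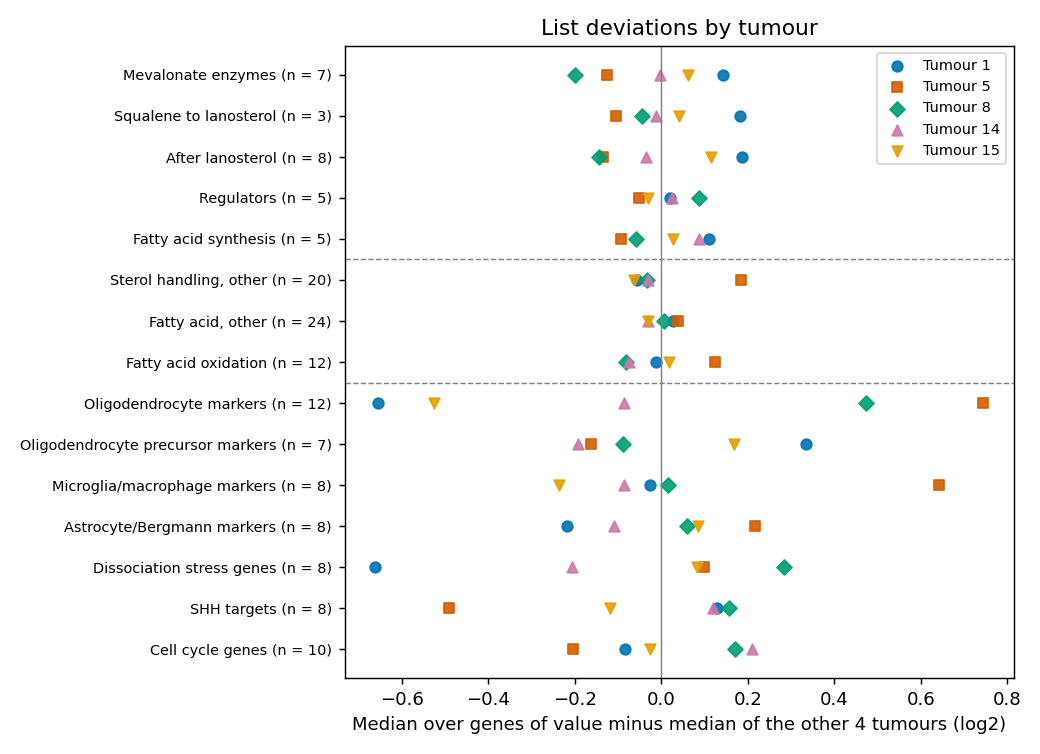
Median over the genes of each list of the log2 value less the median over the remaining 4 tumours (horizontal axis), for lipid synthesis roles (top), other lipid genes (middle) and markers and other lists (bottom), with coloured symbols for the 5 tumours and n genes per list. The 3 groups of sterol enzymes have tumour 1 at the right and tumours 5 and 8 at the left, while oligodendrocyte markers have tumours 5 and 8 at the right and tumour 1 at the left, over a wider span.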

How the data were processed

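RNA from 5 tumours of 1 group was sequenced as strand-specific mRNA libraries. The deposited table holds log2 values of 17739 genes. Per the submitters' processing notes, STAR 2.4.1, featureCounts from Subread 1.4.6 and DESeq2 were used, with the builds mm10 and GRCm38. Which annotation, strand setting and gene filter the authors chose was not given in the sources used here. Deposited log2 values are read as regularised-log values from the name of the table. That transformation corrects for library size and pulls weakly expressed genes towards their mean, so small differences at such genes are understated. Of 7 columns, 2 match no sample in the labels and were not used. Column medians lay between 8.51 and 8.58. No read counts were used. The depth is therefore unknown, and intervals for counting error cannot be stated.

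The members and gene lists were chosen with earlier results of these data known. All members are described. Other lists are given by counts, medians and the genes of highest mean and largest SD. Exon lengths came from GENCODE M21 (97.5% of genes matched) and promoters from RefSeq on GRCm38.p6. Exons of 10 members overlap another gene, for 5 of them a gene in the table. The planned protein comparison was not made. Alternatives were the column scaling, the filter, the threshold, the length and leaving out each tumour. Scripts were tested on simulated data. Python 3.11.15, numpy 2.4.6, pandas 2.3.3, scipy 1.17.1 and matplotlib 3.10.9 were used.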

Additional observations from a re-analysis of the deposited data

Results flagged for a closer look

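Pmvk, the phosphomevalonate kinase gene, was lower in tumour 8 (8.24) than in the other 4 tumours (8.55 to 8.59). The gap to the nearest tumour was 0.877 of the whole range, above the limit of 0.71 for 5 samples in Dixon's test. Without tumour 8 its range narrowed from 0.35 to 0.043. It was the only one of 39 values examined in this way (29 genes, 5 pairs and 5 role medians) past that limit, and chance alone passes about 1 in 20.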

How the results depend on the processing

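The direction of the median deviation of the members in tumours 1, 5 and 8 was the same under every alternative run. In tumour 1 it lay between 0.11 and 0.18, in tumour 5 between -0.14 and -0.076, and in tumour 8 between -0.13 and -0.078. For the 18 sterol enzymes alone it was 0.18, -0.12 and -0.17. In tumours 14 and 15 it was near 0 and changed sign (-0.030 to 0.10 and -0.010 to 0.093). The median level per kilobase of 7.89 was 10.25 without length subtraction and 8.33 as a mean, and 7.87 to 7.93 with 1 tumour left out. Sqle minus Fdft1 was 0.21 without length subtraction and -0.20 to -0.16 with 1 tumour left out. Srebf2 minus Srebf1 was 0.65 without length subtraction and 0.41 with the longest transcript, and 0.16 to 0.38 with 1 tumour left out. The count of members over the range threshold was 2 at 1.5-fold and 0 at 2-fold. Leaving out a tumour cannot widen a range, so the 2-fold count could only stay at 0 there.

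Alternatives with members free of exon overlap or the sterol enzymes alone, and those on the counts above or below the other tumours, were added after seeing the data. Of the 19 members without exon overlap, 8 were highest in tumour 1, against 20.2% of the expressed genes. The lowest value fell in tumour 5 for 6 of the 19, near the 24.6% of the expressed genes. In tumour 1, 16 were above the others, against 52%, and in tumour 5, 15 were below them, against 51.9%. For 9 of the 19, tumours 1 and 15 lay above tumours 5 and 8, against 22%. All 11 sterol enzymes among the 19 were above the others in tumour 1. With 1 other tumour left out, 13 to 18 members were highest in tumour 1, against 23.4% to 28.1% of the expressed genes. In tumour 5, 14 to 18 were then lowest, against 27.9% to 30.8%, and 17 to 18 sterol enzymes were above the others in tumour 1. With the columns given the same distribution (quantile normalization), 10 members were lowest in tumour 5, against 24.7%. Members lowest in tumour 8 numbered 16 without tumour 5, against 29.4% of the expressed genes. Of 203 alternatives for single member ranges, 14 moved by more than 1 SD, 13 of them by leaving out a tumour. Leaving out a tumour that is neither highest nor lowest for a gene cannot change its range, so many of the 203 could not move. Of 64 alternatives for the other counts of members at an extreme, 14 moved by over 1.5 times. None of the alternatives gives the depth of the libraries, which limits what can be said of weakly expressed genes.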
